A study of Mus musculus with 48 samples.

Results

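*Ngp*, *Camp*, *Ltf*, *Lcn2*, *Mmp8*, *Mmp9*, *Cybb*, and *Itgam* were taken as a list of neutrophil specific and gelatinase granule genes, and 7 of the 8 were read from the table of 34586 genes. *Itgam* was not analysed here. Neutrophils fill their granules in a fixed order as they mature, so that specific granules, with lactoferrin (*Ltf*), the cathelicidin peptide (*Camp*), neutrophilic granule protein (*Ngp*), the siderophore binding lipocalin 2 (*Lcn2*), and the collagenase *Mmp8*, are made before gelatinase granules, with the gelatinase *Mmp9*. The membrane of these granules carries gp91phox (*Cybb*), the catalytic subunit of the NADPH oxidase, which macrophages, monocytes, and B cells also make. In an inflamed joint, the granule contents are released onto microbes and matrix.

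Seq-Well, in which single cells settle into nanowells beside beads that carry barcodes, had been used to count transcripts as unique molecular identifiers (UMIs) in single cells of male DBA1/J mice. The mice with collagen-induced arthritis (CIA), of DBA1/J as were all controls, had been injected with bovine type II collagen in complete Freund's adjuvant and boosted on day 20 in incomplete adjuvant, and the healthy mice were given PBS. Joint was taken from 3 healthy (H3, H4, H7) and 5 CIA mice (S1, S3, S5, S6, S8), and muscle, spleen, lung, and skin from 4 healthy (H3, H4, H6, H7) and 6 CIA mice (S1, S2, S3, S5, S6, S8). Mice S1, S2, and S3 had an arthritis score of 8, and the other CIA mice scores between 2 and 5. The sample titles end in 2CIA for S1, S2, S3, and H3 and in CIA for the other mice. This ending was taken as the name of an experiment, so that severity and experiment cannot be told apart among CIA mice. Young adult mice were used, the cells were frozen before use, and red cells were lysed in spleen and in some muscle samples. Of 13240 cells, 12096 had a deposited cell type label. Granulocytes (1207 cells) and neutrophils (170 cells) were joined here as granulocytes and neutrophils (GN), 1377 cells in all. The annotated cells of a sample numbered 30 to 1989, with 17748 to 1645734 UMIs. No library pair was identical, and 59 barcodes, of 135 cells, occurred in at least 2 samples. The mouse was the replicate, and a level is the UMI count of a gene in the summed cells, scaled to a common total (CPM). In sums over cells, fewer GN and less RNA per GN cannot be told apart.

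Of the 7 genes, 4 lie on chromosome 9 of GRCm38, *Ngp* at 110419747-110423012 and *Ltf* at 111019271-111042767 on the plus strand, *Camp* at 109847379-109849617 on the minus strand, and *Mmp8* at 7558456-7568485 on the plus strand. *Lcn2* (32384633-32388252, minus) and *Mmp9* (164940780-164955850, plus) lie on chromosome 2 and *Cybb* (9435252-9487771, minus) on chromosome X. The bases directly upstream of the RefSeq start are shown for the 4 genes on chromosome 9, since 3 of them are the most abundant transcripts of the list and *Mmp8* departs from their pattern in several comparisons. Capitals mark TTNNGNAA, the letters bound by C/EBP factors, found on either strand and with no overlap counted apart. The windows are chr9:110419558-110419746 (*Ngp*, plus), chr9:109849618-109849706 (*Camp*, minus), chr9:111019042-111019270 (*Ltf*, plus), and chr9:7558179-7558428 (*Mmp8*, plus) of GRCm38.p6, and they end before any annotated transcribed base.
Ngp: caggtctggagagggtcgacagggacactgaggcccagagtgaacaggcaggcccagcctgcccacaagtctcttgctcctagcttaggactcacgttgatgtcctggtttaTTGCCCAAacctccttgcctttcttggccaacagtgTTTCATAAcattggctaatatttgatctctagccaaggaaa
Camp: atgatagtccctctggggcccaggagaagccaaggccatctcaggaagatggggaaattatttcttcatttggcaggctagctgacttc
Ltf: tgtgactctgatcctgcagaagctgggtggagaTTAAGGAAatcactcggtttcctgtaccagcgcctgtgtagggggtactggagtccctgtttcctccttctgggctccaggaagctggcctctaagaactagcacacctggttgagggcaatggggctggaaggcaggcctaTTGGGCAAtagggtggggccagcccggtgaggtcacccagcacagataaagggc
Mmp8: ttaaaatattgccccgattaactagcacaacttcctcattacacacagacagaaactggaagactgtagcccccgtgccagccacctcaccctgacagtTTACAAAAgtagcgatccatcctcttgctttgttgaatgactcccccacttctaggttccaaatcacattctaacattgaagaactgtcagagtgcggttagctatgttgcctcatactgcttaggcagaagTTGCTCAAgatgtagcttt
The letters TTNNGNAA occur in 2 places each for *Ngp*, *Ltf*, and *Mmp8* and in none for *Camp*. In windows of up to 250 bases upstream, 4 of the 6 members with a RefSeq entry held them (*Lcn2*, *Ltf*, *Mmp8*, *Ngp*), against 12104 of 32851 windows (36.8%) in the table. GAGGAA, the letters of PU.1 on either strand, occurred in 3 of the 6 (*Lcn2*, *Ltf*, *Mmp8*) and in 23.3% of all windows. These matches describe letters in the windows, not bound sites. *Mmp9* had no entry.

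In granulocytes, *Ngp* had 23257 ± 5436 CPM and *Camp* 25477 ± 5056 CPM (SD, n = 10 mice with at least 10 such cells over all organs). The iron binding protein and the siderophore binding protein had lower levels, with 4004 ± 875 CPM of *Ltf* and 3187 ± 1242 CPM of *Lcn2*. The metalloproteinases were lower again, with 536 ± 278 CPM of *Mmp8* and 143 ± 109 CPM of *Mmp9*, and *Cybb* had 790.4 ± 163 CPM. UMIs of Seq-Well come from transcript ends, so these levels are not divided by transcript length, and the order is one of UMIs. Neutrophil labelled cells came second for 6 of the 7 genes, with 11707 ± 4163 CPM of *Ngp* and 10223 ± 5919 CPM of *Camp* (SD, n = 4 mice). *Cybb* was different in its order, since macrophages (403 ± 91.4 CPM, n = 10) and monocytes (365 ± 180 CPM, n = 10) preceded neutrophils (337 ± 95.6 CPM, n = 4), and these neighbours differed by less than their SD. Granulocytes and neutrophils differed by less than the larger SD in *Mmp8* and *Mmp9*. Dendritic cells came next in all but *Cybb*, with 3203 ± 1453 CPM of *Ngp* (n = 9), followed by endothelial cells in *Ngp*, *Camp*, *Ltf*, and *Lcn2*, with 1496 ± 1354 CPM of *Ngp* (n = 9). Basal III cells, joined over organs, had the lowest *Ngp*, with 35.3 ± 61.2 CPM (n = 10). Those of skin had 0 *Ngp* UMIs, and those of joint had 25 in CIA and 6 in healthy mice. Granulocytes were not tested against other labels, because *Camp* and *Ngp* are among the authors' markers of granulocytes and *Mmp9* and *Ltf* among those of neutrophils.

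**Figure D1:**
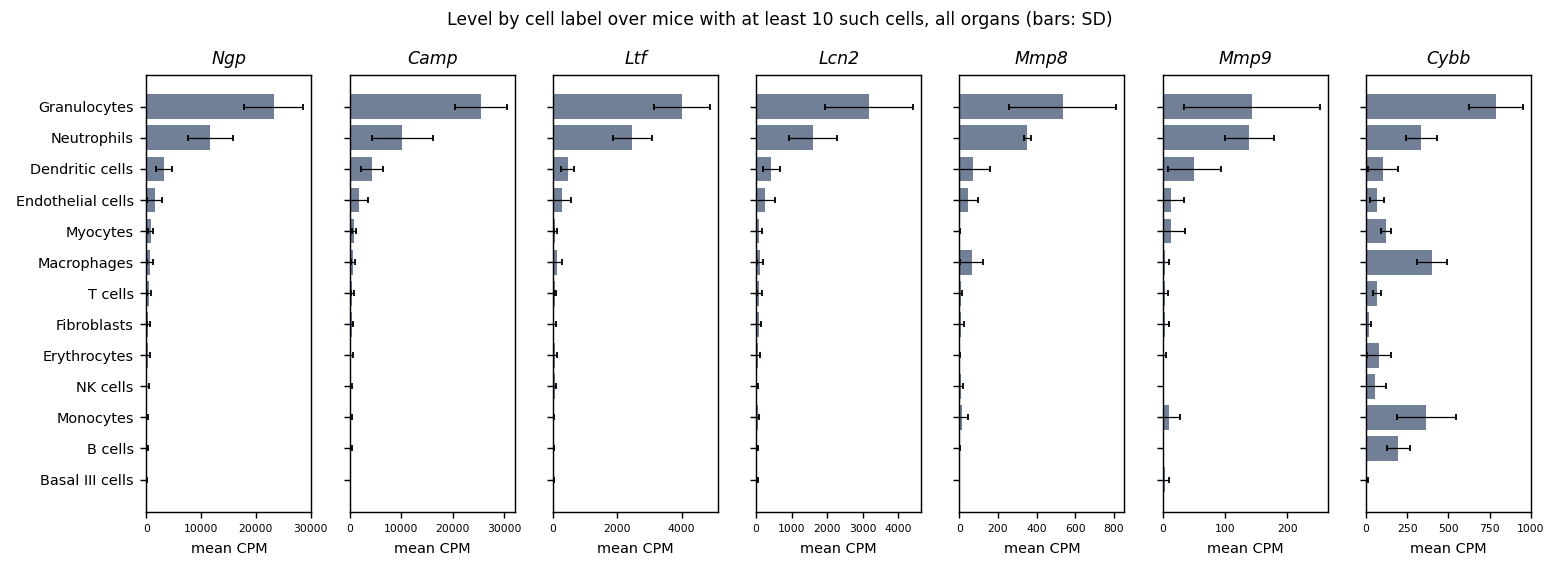
Level of each gene by deposited cell label over mice with at least 10 such cells, all organs joined, on a linear CPM axis starting at 0 (bars, mean; lines, SD over mice). Granulocytes lead in all 7 genes, and *Cybb* is the gene with further levels in macrophages (403 CPM) and monocytes (365 CPM).

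Detection in the labelled cells is given as a description. It is no check of the labels, since *Camp*, *Ngp*, *Ltf*, and *Mmp9* are among the authors' markers for them. *Ngp* was found in 1182 of the 1207 granulocytes and *Camp* in 1147, *Ltf* in 973, *Mmp8* in 414, and *Mmp9* in 177. After thinning to 400 UMIs per cell, 96.8% of granulocytes and 77.8% of neutrophils had an *Ngp* UMI, against 17.2% of the other cells of joint, muscle, and spleen (median depths 845, 729, and 657 UMIs; unthinned 97.9%, 83.2%, and 28.0%). *Mmp8* and *Mmp9* were found together in 88 granulocytes. *Mmp8* was thus found in 49.7% of the granulocytes with *Mmp9* and in 31.7% of those without it. Granulocytes with *Mmp8* had 20773 CPM of *Camp* and those without it 30184 CPM, while *Ltf* was at 4863 and 4539 CPM. The granulocytes with and without a gene were not matched in depth or organ, and these differences were not tested. Other granulocyte markers were present in GN of every group, with *S100a8* in all granulocytes, *Retnlg* in 66.1%, *Ly6g* in 24.2%, and *Cxcr2* in 11.2%. Of these, *S100a8* and *Ly6g* are also markers used by the authors for the labels. Genes of granulocyte precursors were rare, with *Mpo* in 2.98% and *Ms4a3* in 9.86% of granulocytes. The 10 macrophage markers summed to 7286 to 23082 CPM in GN, with overlapping ranges of healthy and CIA mice in joint and muscle, and T cell markers to at most 108 CPM. B cell markers summed to at most 477 CPM, fibroblast markers to at most 2129 CPM, and erythrocyte markers to at most 15160 CPM. Their part in the results was not tested.

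The share of GN changed with CIA in opposite directions in joint and muscle. GN were 13.9%, 3.14%, and 9.72% of annotated cells in the joints of H3, H4, and H7, and 26.8%, 17.5%, 54.2%, 15.8%, and 54.2% in those of S1, S3, S5, S6, and S8. Every CIA joint was above every healthy joint, by 24.8 percentage points on average (two-sided exact permutation p = 0.0357, adjusted over 3 organs 0.0357; lower values are not possible with 3 and 5 mice). In muscle, GN were 7.14%, 28.0%, 20.0%, and 20.7% of the cells of H3, H4, H6, and H7 and 2.22%, 0.871%, 2.86%, 0.575%, 4.47%, and 1.91% of those of S1, S2, S3, S5, S6, and S8. Every CIA muscle was below every healthy one, by 16.8 points on average (exact permutation p = 0.00952, adjusted 0.0286). In spleen, healthy mice had 2.42%, 1.22%, 1.50%, and 0%, where 0 of 217 cells allows a share of up to 1.74% by the Wilson interval. The 3 spleens of the experiment 2CIA had 10.96%, 16.5%, and 14.3%, and S5, S6, and S8 had 1.95%, 3.36%, and 2.39% (difference 6.95 points, exact permutation p = 0.0286, adjusted 0.0357). The spleen groups overlapped, and within the experiment CIA alone the difference was 1.66 points (exact permutation p = 0.1, which 3 against 3 mice cannot go below). Without H4, H6, or H7 the spleen difference had an exact permutation p of 0.0714. Intervals cover counting error only.

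Within GN of the joint, 5 of the 7 genes had a log2 fold change below 0, and 0 of the 7 was called by the quasi-likelihood test of edgeR (adjusted after Benjamini and Hochberg over all genes). *Ngp* had 20745.5, 22287, and 40135 CPM in the joint GN of H3, H4, and H7, and 19777, 15673, 28864, 11202, and 18538 CPM in S1, S3, S5, S6, and S8. The groups overlapped through S5, which held 518 of the 756 GN of CIA joints. H4, H7, and S6 had only 5, 7, and 9 GN. *Camp* had 26339, 26114, and 29764 CPM in healthy and 18949.6, 16505, 29242, 11501, and 16622.5 CPM in CIA joints, again with only S5 inside the healthy range. Their log2 fold changes were -0.41 (SE 0.37) and -0.41 (SE 0.34), with an adjusted p of 0.837 for both in the edgeR test. *Ltf* (3632, 6078, and 5253 against 4184, 2111, 5500.3, 3286, and 2388 CPM) and *Lcn2* (1837, 4953, and 4983 against 3557, 1024, 4786, 1494, and 1489.6 CPM) had log2 fold changes of -0.38 and -0.50. The 4 proteins are soluble contents of specific granules, and their transcripts held 6.40% ± 1.44 of the GN UMIs in healthy (SD, n = 3) and 4.33% ± 1.56 in CIA joints (SD, n = 5).

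*Mmp8* had 501, 1801, and 673 CPM in the same cells of healthy and 896, 192, 750.2, 2389.8, and 355 CPM in those of CIA joints (log2 fold change -0.03, SE 0.63). The CIA mice lay both above and below all healthy mice, and the values rest on 3 to 16 *Mmp8* UMIs in all mice but S1 and S5. *Mmp9* had 1 UMI in H3 and 0 in H4 and H7, against 42, 0, 115, 5, and 1 UMIs in CIA joints. The pooled ratio was 7.68 (95% counting interval 1.36 to 305), and the adjusted p of the edgeR test without a filter on low counts was 0.715. *Cybb* overlapped, with S8 above every healthy mouse, and had 459, 675, and 1077 CPM in healthy and 689, 832, 757, 597, and 1159 CPM in CIA joints. Of all 174 genes tested in joint GN, 0% were called (also 0% without the filter), 11 had an unadjusted p below 0.05, and DESeq2 called 1, none of the 7 by either tool. The median log2 fold change of the 7 was -0.38, against 0.10 over all genes tested. The sign turned in the fit without the filter, where *Ngp*, *Camp*, *Ltf*, *Lcn2*, and *Mmp8* had log2 fold changes between 0.58 and 0.80 and the median of all genes was 1.23. It did not turn with RLE factors or plain library size, and the cause was not tested.

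**Figure D2:**
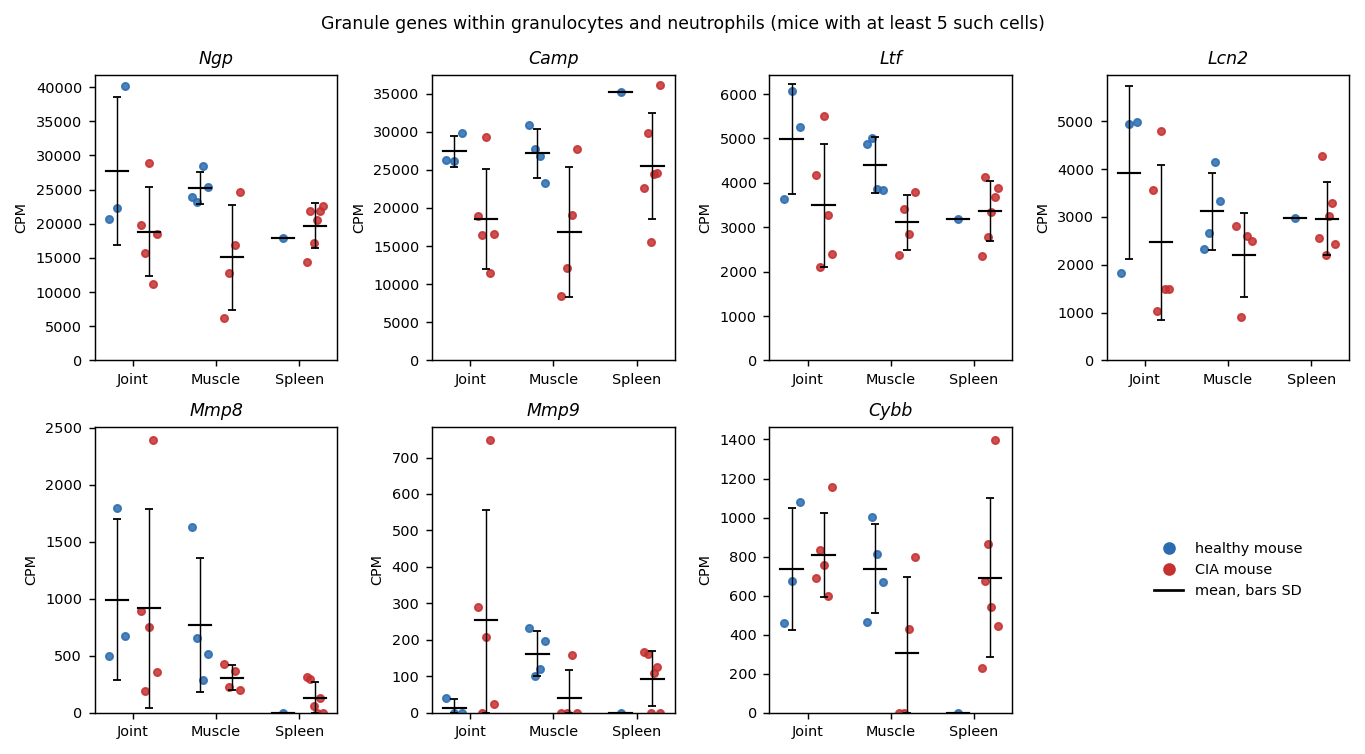
CPM of each gene in granulocytes and neutrophils of each mouse with at least 5 such cells, by organ (points, mice; horizontal lines, group means; vertical bars, SD, ending at 0 where they would pass it; axes linear from 0). In joint, 4 of 5 CIA mice lie below every healthy mouse in *Ngp* and *Camp*, and in muscle the groups are apart in *Ltf*.

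In muscle GN, all 7 log2 fold changes were below 0, between -0.43 and -0.99, and none passed the edgeR test (3 of 237 genes, 1.27%, were called in all, and 0.015% without the filter). *Ltf* had 4883, 5000.1, 3869, and 3842 CPM in H3, H4, H6, and H7 and 2376, 3415, 2849, and 3799 CPM in S2, S3, S6, and S8, the mice with at least 5 GN. These groups did not overlap, although H7 and S8 were close (CIA minus healthy -1289 CPM, two-sided exact permutation p = 0.0286 unadjusted, adjusted p = 0.914 in the edgeR test). The values of H3, S3, and S8 rest on 5 cells each and that of S2 on 6. *Ngp* had 23948, 23217, 28452, and 25416.5 CPM in healthy and 6263.5, 12750.5, 16917, and 24593 CPM in CIA mice. S8, with 5 cells, was inside the healthy range and the other CIA mice were below it. *Camp* was ordered in the same way, with 8423, 12067, 19062, and 27692 CPM in the 4 CIA mice against 23201 to 30923 CPM in healthy mice. *Cybb* was 0 in S2 and S3 and 431 and 799.8 CPM in S6 and S8, against 465 to 1005 CPM in healthy mice. The cells compared differed in label, since 86 of the 89 GN of S6 were labelled neutrophils, against 15 of 74 in H6, 20 of 93 in H7, and 0 in H3 and H4. *Hba-a1* and *Hbb-bt*, 2 of 8 erythrocyte markers, were called lower in the same cells, and the 8 markers summed to 3222 to 15160 CPM in healthy and 216 to 662 CPM in CIA mice, whose part in the result was not tested.

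In spleen GN only H4 had at least 5 cells among healthy mice, so that the test was made only with mice of at least 3 such cells (2 healthy and 6 CIA mice). H4 (6 cells) had 17899 CPM of *Ngp* and 35159 CPM of *Camp*, and the 6 CIA mice had 14428.5 to 22589 CPM of *Ngp* (median 21164) and 15540.2 to 36098 CPM of *Camp* (median 24556). The healthy value lay within the range of CIA mice for *Ngp*, *Camp*, *Ltf*, and *Lcn2*. *Mmp8* and *Mmp9* had 0 UMIs in all 12 GN of healthy spleens, and 72 and 40 UMIs in the 240 of CIA spleens. Of these, 55 and 30 were in S2. In H4, 0 of 4693 UMIs allows up to 3, so that no difference was detectable at this depth. In the test with mice of at least 3 cells, 0 of the 7 genes was called by edgeR, with log2 fold changes of 0.07 for *Ngp*, -0.29 for *Camp*, -0.14 for *Ltf*, 0.42 for *Lcn2*, and 0.41 for *Cybb* (adjusted p between 0.672 and 0.896). For *Mmp8* and *Mmp9* the adjusted p was 0.712 in the fit without the filter (unadjusted 0.0347 and 0.0726).

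Summed over all annotated cells of an organ, the genes had the sign of the difference in GN share. In joint all 7 genes had a log2 fold change above 0, from 1.45 (*Cybb*) to 3.84 (*Mmp9*), and edgeR called 0 of them (3 of 2364 genes, 0.127%, were called). *Mmp8* had 66.8, 71.3, and 83.4 CPM in healthy and 241, 105, 383, 255, and 273 CPM in CIA joints, in the order of mice given above. Every CIA mouse was above every healthy mouse, although S3 and S6 rest on 13 and 16 UMIs (log2 fold change 1.99, SE 0.54, adjusted p = 0.186 in the edgeR test and 0.0304 in DESeq2; exact permutation p = 0.0357 unadjusted). *Ngp* overlapped, with 3341, 819.5, and 4629 CPM in healthy and 5273, 2712, 14812, 1369.5, and 11207 CPM in CIA joints. The same 3 mice, S1, S5, and S8, were above all healthy mice in *Ngp*, *Camp*, *Ltf*, *Lcn2*, and *Cybb*. Of the *Ngp* UMIs of CIA joints, 90.0% were in GN, which were 41.4% of the cells, and in healthy joints 85.3% were in GN, which were 8.91%.

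In muscle all 7 genes were lower in CIA, with log2 fold changes from -1.74 (*Cybb*) to -3.54 (*Mmp8*). *Mmp8* had 143, 176, 76.3, and 151 CPM in H3, H4, H6, and H7 and 29.7, 3.89, 7.96, 4.90, 25.5, and 15.9 CPM in the 6 CIA mice. It was the one member called (SE 0.53, adjusted p = 0.0366 in the edgeR test, where 2 of 3634 genes, 0.055%, were called, and 0.25% without the filter). *Ngp* had 1983, 6980.3, 7645, and 7366 CPM in healthy and 297, 58.4, 613, 1716, 1687, and 1401 CPM in CIA muscle. The groups were apart in *Ngp*, *Camp*, *Ltf*, and *Mmp8* (each exact permutation p = 0.00952 unadjusted, the lowest possible with 4 and 6 mice), and overlapped in *Lcn2*, *Mmp9*, and *Cybb*. Overlap was read for the 7 genes only, so the share of all genes that were apart is not known. For *Ngp*, *Camp*, and *Ltf* the adjusted p of the edgeR test was 0.368. The call of *Mmp8* was lost without H4, H6, H7, S1, S2, or S8 (adjusted p up to 0.304, log2 fold change between -4.16 and -3.23), within the experiment CIA alone, and with the experiment as a term.

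In spleen *Lcn2* was the gene whose groups were apart, with 80.8, 43.8, 42.0, and 0 CPM in healthy and 470.1, 1113, 418, 135, 224, and 119 CPM in CIA mice (exact permutation p = 0.00952 unadjusted; log2 fold change 3.44, adjusted p = 0.145 in the edgeR test). S1, S2, and S3, all of the experiment 2CIA, were the 3 highest. *Mmp8* and *Mmp9*, which the filter had removed, were called in the fit of all genes (adjusted p = 0.0012 and 0.0172 in the edgeR test; 172 of 23012 genes, 0.747%, were called there, and 4 of 2927, 0.137%, after the filter). *Mmp8* had 2 UMIs in the healthy spleens together and 22, 83, 1, 2, 2, and 2 in the CIA mice, a pooled ratio of 21.7 (counting interval 5.88 to 182). *Mmp9* had 1 UMI in healthy spleens and 13, 48, 1, 1, 2, and 3 in the CIA mice, a ratio of 26.4 (4.58 to 1058). S1 and S2 held most of these UMIs. The call of *Mmp8* was lost without S2 (adjusted p = 0.371 in the edgeR test), and that of *Mmp9* without H4, H6, H7, S1, or S2 (up to 0.549). Neither was called within the experiment CIA alone (adjusted p = 0.729 for both) or with the experiment as a term (0.406 and 0.411). Other markers were also higher over all spleen cells. Of 10 macrophage markers 9 had a log2 fold change above 0 (median 2.06, *Cd14* called), as had 8 of 8 erythrocyte markers (median 1.37, *Alas2* called), and outside GN the counts and calls were the same (medians 1.93 and 1.51). Their part in the results was not tested. *Cybb* had a log2 fold change of 0.36, and 35.7% of its UMIs in CIA spleens were in GN against 82.9% of those of *Ngp*.

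**Figure D3:**
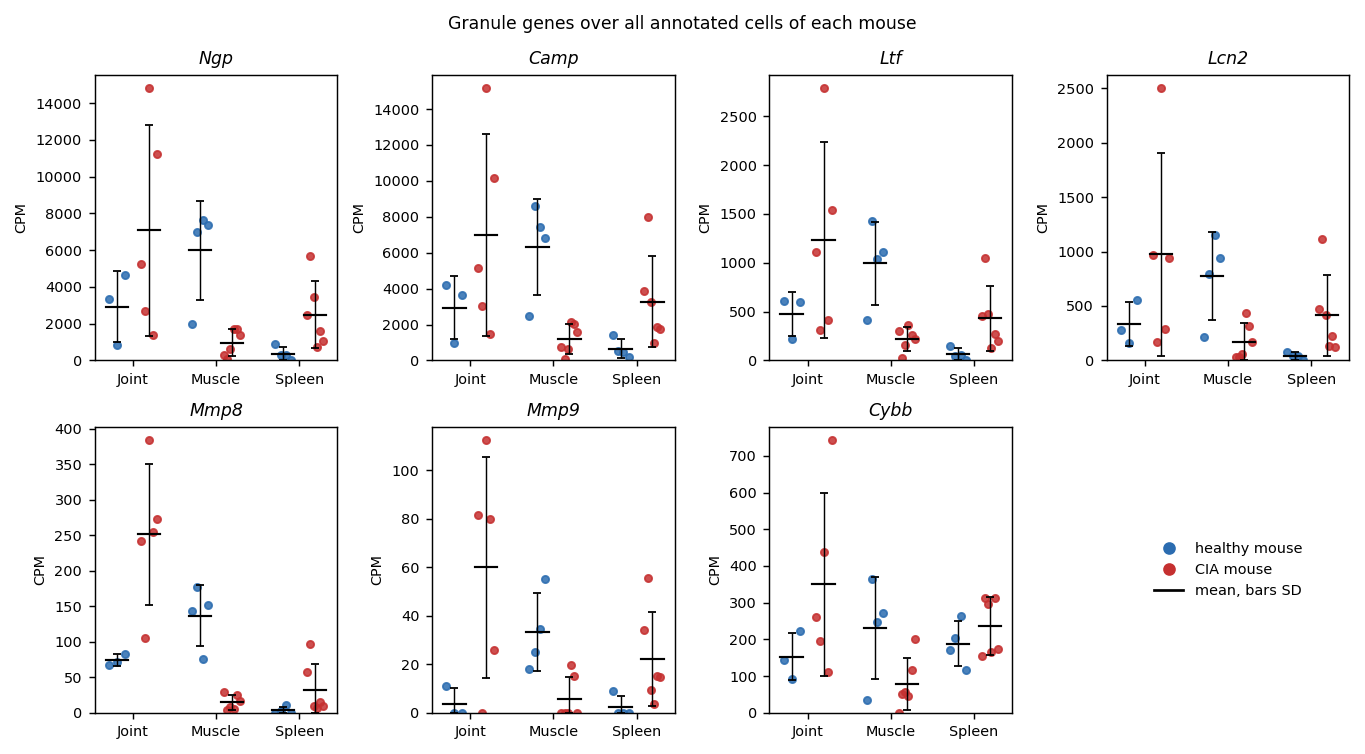
CPM of each gene over all annotated cells of joint, muscle, and spleen for each mouse (points, mice; horizontal lines, group means; vertical bars, SD, ending at 0 where they would pass it; axes linear from 0). All 5 CIA mice lie above the healthy mice in *Mmp8* of joint, and all 6 lie below them in *Ngp*, *Camp*, *Ltf*, and *Mmp8* of muscle.

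Whether the CIA effect differed between organs was tested with an organ by disease term in 1 fit of both organs. The term tests for unequal effects, not for opposite signs. The difference of the CIA effect between joint and muscle was above 0 for all 7 genes, from 3.19 (*Cybb*) to 5.99 (*Mmp9*), and was called for *Mmp8* (5.52, SE 0.77, adjusted p = 0.00222 in the edgeR test, where 3 of 4241 genes, 0.0707%, were called). It was not called without H4 or H7 (adjusted p up to 0.0855) or within the experiment CIA alone (5.37, adjusted p = 0.0952 in the edgeR test). Between spleen and muscle, 6 of the 7 genes were called (28 of 4325 genes, 0.647%, after the filter, and 145 of 27399, 0.529%, without it). These were *Camp* (4.96), *Lcn2* (5.62), *Ltf* (5.32), *Mmp8* (7.32), *Ngp* (5.63), and, from the fit without the filter, *Mmp9* (6.04). *Cybb* had a difference of 2.15 (adjusted p = 0.318 in the edgeR test). The samples were taken as independent, although an animal gave both organs. With the mouse as a block in limma-voom 0 of the 7 were called, within the experiment CIA alone 1 was, and without H7 the adjusted p passed 0.05 for all 6. Muscle is shared by these comparisons, so they are not independent of each other.

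Outside GN, transcripts of the same genes were counted at lower levels, and in CIA spleens some were higher. *Ltf* had 9.25, 9.84, 0, and 0 CPM in the other cells of H3, H4, H6, and H7 and 183, 194, 33.2, 18.3, 55.6, and 26.0 CPM in those of the 6 CIA mice (5 UMIs against 212). No CIA mouse overlapped with a healthy one (exact permutation p = 0.00952 unadjusted), and *Ltf* was called with a log2 fold change of 3.87 (SE 0.64, adjusted p = 8.81e-07 in the edgeR test without the filter, where 143 of 22728 genes, 0.629%, were called, and 0.103% after the filter). *Lcn2* had 27.8, 9.84, 0, and 0 CPM in healthy and 168, 234, 77.6, 36.7, 31.8, and 10.4 CPM in CIA mice, overlapping through S8 and H3 (log2 fold change 3.46, SE 0.60, adjusted p = 3.97e-06). The adjusted p moved much when a healthy mouse was left out, up to 0.658 for *Ltf* (not called without H3, H6, or H7) and 0.789 for *Lcn2* (not called without H3, H4, H6, or H7). Neither was called within the experiment CIA alone. *Cybb* had a log2 fold change of 0.02 there (SE 0.30).

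In joint, the 7 genes had log2 fold changes between 0.40 (*Cybb*) and 2.88 (*Mmp8*) outside GN, and 0 were called (3 of 2374 genes, 0.126%, and 0.295% without the filter). *Ngp* had 662, 118, and 543 CPM in healthy and 1011, 834, 2458, 196, and 2229 CPM in CIA joints, where S6 was within the healthy range. In muscle 0 of 3253 genes (0%, and 0.161% without the filter) and 0 of the 7 were called by edgeR (55 of all genes had an unadjusted p below 0.05, and DESeq2 called 3). S5 had 1666 CPM of *Ngp* outside GN, above the other CIA mice (0 to 753 CPM) and near H4 and H7 (1547 and 1721 CPM). *Mmp8* outside GN of muscle had 1, 2, 1, and 10 UMIs in healthy and 0, 0, 0, 2, 7, and 1 in CIA mice, with overlap (exact permutation p = 0.019 unadjusted, adjusted p = 0.802 in the edgeR test without the filter).

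Much of what was counted outside GN was in cells with other granulocyte transcripts. Cells in which *S100a8* and *S100a9* held at least 5% of the UMIs were 157 of the 1070 other cells of CIA joints, and held 57.2% of the UMIs of *Ngp*, *Camp*, *Ltf*, and *Lcn2* there. In CIA spleens 289 of 2073 such cells held 73.8%, and in CIA muscle 44 of 3400 held 25.8%. In healthy mice they were 4 of 368 cells in joint (26.6% of the UMIs), 41 of 838 in muscle (43.5%), and 15 of 995 in spleen (82.8%). In joint 89 of the 157 cells were labelled endothelial and 34 macrophages, and in spleen 251 of the 289 were labelled dendritic cells. Without these cells *Ltf* and *Lcn2* of CIA spleens were still called, with log2 fold changes of 3.11 and 2.87 (adjusted p = 0.0361 and 0.0351 in the edgeR test without the filter).

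Over single cells, *Ngp*, *Camp*, *Ltf*, and *Lcn2* together held at least 2% of the UMIs in 1033 of 1207 granulocytes and 83 of 170 neutrophils. The same held for 54 of 553 cells labelled endothelial, from 7 mice, and for 57 of 441 dendritic cells. In these 54 cells the median share of *S100a8* and *S100a9* was 17.9%, against 0.982% in the other endothelial cells, and the endothelial markers had 1315 against 6791 CPM. In the 57 dendritic cells it was 20.0% against 8.18%, and *H2-Ab1* and *Cd74* had 2313 against 3618 CPM. Of all 441 cells labelled dendritic, 305 had at least 5% of their UMIs on *S100a8* and *S100a9*. No B cell, fibroblast, NK cell, myocyte, or Basal III cell reached 2%. No doublets were removed here, and the part of doublets, of free RNA, or of the labels in these values was not tested. In muscle of CIA mice, myocytes were the label with the most *Ngp* UMIs outside GN (858 of 1886), and over all organs the cells of that label had 21439 CPM of *H2-Ab1* and *Cd74*, against 8930 CPM in B cells.

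**Figure D4:**
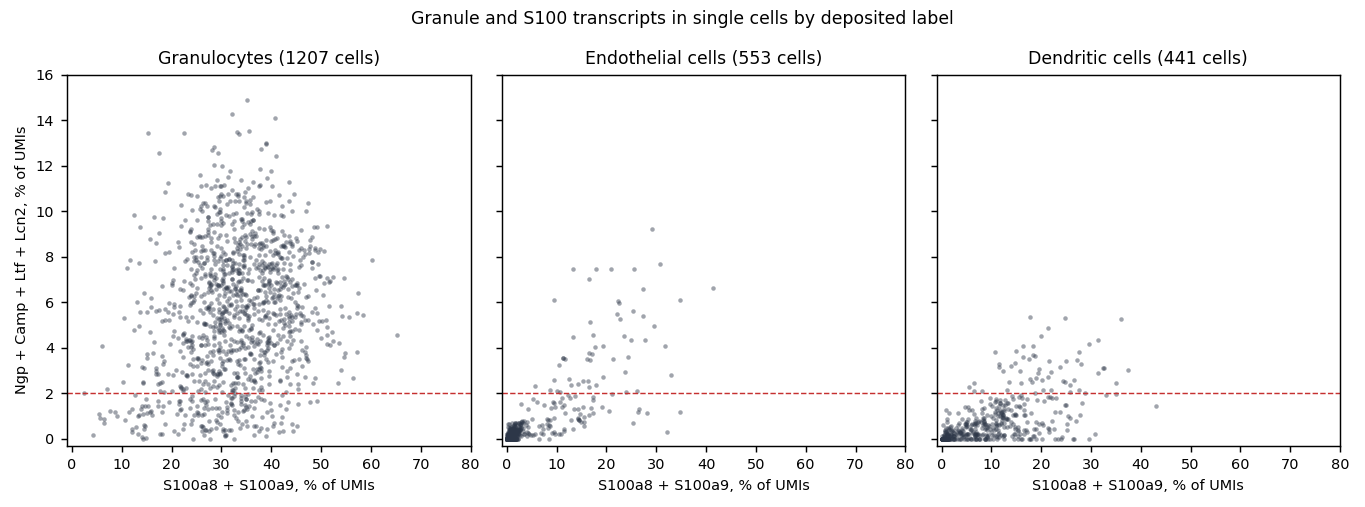
Share of UMIs on *Ngp*, *Camp*, *Ltf*, and *Lcn2* (vertical axis, percent) against the share on *S100a8* and *S100a9* (horizontal axis, percent) for single cells of 3 labels (granulocytes, endothelial cells, dendritic cells); the dashed line marks 2%. Of the granulocytes 1033 of 1207 lie above the line, and of the endothelial cells 54 of 553, which also have high shares of the S100 genes.

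The mix of the 7 transcripts was set beside each other inside and outside GN. Among samples of joint, muscle, and spleen with at least 100 such UMIs, *Ngp* was 39.7% ± 4.45 of them in GN (SD over 23 samples) and 33.4% ± 7.99 outside (SD over 16 samples). A mouse gave up to 3 of these samples, so that the SD is a description and not a spread over animals. *Ltf* was 7.24% ± 1.61 and 5.50% ± 2.189, and *Lcn2* 5.16% ± 1.52 and 5.56% ± 2.46. *Cybb* was the exception, with 1.31% ± 0.736 in GN and 10.2% ± 12.9 outside, up to 44.4% in a spleen. Samples overlap in both sets of values, and no test was made.

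By cell type, 3 calls were made outside GN. In joint fibroblasts *Lcn2* had 1, 0, and 3 UMIs in H3, H4, and H7 and 19, 2, and 86 in S1, S3, and S5, or 15.8, 0, and 77.6 against 88.5, 29.1, and 305 CPM. It was called with a log2 fold change of 2.99 (SE 0.80, adjusted p = 0.0391 in the edgeR test without the filter, where 100 of 19235 genes, 0.52%, were called; 17 of 1014, 1.68%, after the filter). S3 was below H7, and the call was lost without H3, H4, S1, or S5, and with mice of at least 5 cells. *Ngp* and *Camp* in the same cells had log2 fold changes of 1.55 and 1.41 and were not called. *S100a8* and *S100a9* held 0.121% to 0.515% of the fibroblast UMIs in healthy and 1.23% to 2.80% in CIA mice, whose part in the result was not tested.

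In spleen monocytes *Ngp* had 2, 0, 0, and 0 UMIs in the healthy mice and 12, 98, 6, 2, 6, and 0 in the 6 CIA mice, and *Camp* 0, 0, 3, and 0 against 25, 124, 10, 8, 4, and 0. The pooled ratios were 28.6 (counting interval 7.74 to 238) and 26.3 (8.83 to 129), and both were called (adjusted p = 0.00112 and 0.000124 in the edgeR test without the filter; 81 of 16691 genes, 0.485%, were called, and 29 of 456, 6.36%, after it). S8 had 0 UMIs of both, as had H4 and H7. *Ngp* was not called without S2 (adjusted p = 0.226), *Camp* was not called without H3, H4, H6, or H7 (up to 0.279), and neither was within the experiment CIA alone. *S100a8* and *S100a9* were called higher in the same cells, with 0.0618% to 0.102% of UMIs in healthy and 0.263% to 2.30% in CIA mice.

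In macrophages of joint, muscle, and lung 0 of the members was called by edgeR (28 of 273 genes, 10.3%, 1 of 545, 0.183%, and 35 of 538, 6.51%, were called in all; without the filter 0.0714%, 0.0685%, and 0.193%). *Mmp8* had 0 UMIs in the macrophages of 3 healthy joints and 10, 4, 13, and 4 in those of S1, S3, S5, and S8. All 4 CIA mice were above the healthy mice. *S100a8* and *S100a9* held 0.0924% to 0.680% of the UMIs of these cells in healthy and 2.97% to 5.50% in CIA mice. Measured against 3 UMIs over the healthy group, it was at least 2.83-fold higher (adjusted p = 0.211 in the edgeR test without the filter). In muscle macrophages the 7 genes had log2 fold changes between -4.88 and 1.46, and *Mmp8* had 1, 0, and 7 UMIs in H4, H6, and H7 and 0 in the CIA mice. *S100a8* and *S100a9* held 3.23% of the UMIs of these cells in H7, 0.597% and 1.23% in H6 and H4, and 0.0374% to 1.34% in CIA mice, and their part was not tested. *Mmp8* in lung macrophages had 0, 1, 0, and 0 UMIs in H3, H4, H6, and H7 and 10, 3, 4, 2, 4, and 2 in the 6 CIA mice, or 0 to 9.63 against 48.4 to 210.3 CPM. Every CIA mouse was above every healthy mouse, and the pooled ratio was 20.3 (counting interval 3.32 to 833), with an adjusted p of 0.113 in the edgeR test without the filter. *S100a8* and *S100a9* held 0.0356% to 0.0516% of the UMIs of lung macrophages in healthy and 0.0580% to 1.45% in CIA mice. Over lung cells outside GN, *Mmp8* had means of 94.2 CPM in CIA and 1.98 CPM in healthy mice. Without cells of at least 5% *S100a8* and *S100a9* UMIs the means were 92.4 and 1.98 CPM. The part of these transcripts in the macrophage values was not tested. *Cybb*, made by macrophages themselves, had a log2 fold change of 0.05 there (SE 0.27).

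Related genes were read from lists. Of 14 other genes of specific and gelatinase granules, 0 were called in joint or muscle GN. Over all cells, *Ptx3* was called higher in joint, 0 of the 14 were called in muscle (12 had a log2 fold change below 0), and *Cd177* and *Fpr2*, a neutrophil surface protein and a formyl peptide receptor, were called higher in spleen (log2 fold changes 3.10 and 3.12). *Ptx3*, *Cd177*, and *Fpr2* were read from fits without the filter. Of all genes, 66 of 24079 were called there in joint and 172 of 23012 (0.747%) in spleen. In the difference between spleen and muscle 7 of the 14 were called, among them *Olfm4* (7.02), *Fcnb* (6.33), and *Chil3* (6.14). Of all genes, 28 of 4325 (0.647%) were called there after the filter. Without the filter, the fit that gave *Olfm4*, 145 of 27399 (0.529%) were called. Fits with a mouse left out or with the mouse as a block were read for the members only, not for these genes. In joint fibroblasts *Ptx3* (4.77) and *Hp* (3.93) were called, as was *Timp1* (2.91), the inhibitor of metalloproteinases. Of all genes, 1.68% were called in these cells after the filter, and 0.52% without it, the fit that gave *Ptx3*. Of 6 oxidase and integrin partners 0 were called in any comparison. *Cyba*, the subunit that pairs with gp91phox, had log2 fold changes of 1.03, -0.44, and 0.51 over all cells of joint, muscle, and spleen, and *Itgb2*, the beta chain that pairs with the product of *Itgam*, 0.83, -1.04, and 0.20. Of 6 regulators of granulopoiesis, *Cebpe* was called in spleen and in the difference between spleen and muscle. Genes of granulocyte precursors were also called, *Mpo*, *Prtn3*, and *Ms4a3* higher in spleen and *Ctsg* lower in muscle. The shares called over all genes were 0.137% after the filter and 0.747% without it in spleen, and 0.055% and 0.25% in muscle.

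Over 68 groups of organ, disease, and label with at least 10 cells, the genes most like a member were found by Pearson's r of log2(CPM + 10) over 12895 genes, as a description. *Ngp* and *Camp* were most alike (r = 0.99), and outside the list *S100a9* and *S100a8* came nearest to both (r = 0.94 and 0.94 for *Ngp*). *Ltf* and *Lcn2* were nearest to *Wfdc21* (r = 0.92 and 0.91). *Mmp8* was nearest to *C5ar1* (r = 0.91), the receptor of the complement fragment C5a, then *Cd300lf* and *Hdc*. *Mmp9* was nearest to *Ceacam10* (r = 0.82), and *Cybb* to *Tyrobp* (r = 0.86), *Alox5ap*, and *Lyz2*, genes of myeloid cells at large. The groups share mice and libraries, and r between *Ngp* and *Cybb* was 0.56.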

How the data were processed

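Raw UMI counts per gene and cell were used as deposited, together with the authors' table of cell type labels. According to the methods, the authors made the counts with the Drop-seq tools and STAR on GRCm38, whereas the processing notes list GRCh38 and mm9, so the build is not settled by the sources used here. The members and all lists were chosen with earlier results of these data known. UMIs were summed per mouse, organ, and cell set, for mice with at least 5 GN (3 GN in spleen, as an alternative) or 10 cells of another type. Sums were tested with edgeR 4.0.16 in R 4.3.3 (TMM, filterByExpr, quasi-likelihood F-test, Benjamini-Hochberg adjustment over all genes, threshold 0.05), and a member that did not pass this filter has its value from a fit of all genes. The SE is the log2 fold change divided by the root of F. Exact permutation tests of the per-mouse means were two-sided, unadjusted unless stated, and added after the data were seen. DESeq2 1.42.0 and limma 3.58.1 were used for alternatives. Motif matches and summaries were computed in Python 3.11.15 with pandas 2.3.3 and scipy 1.17.1. Named genes were all members, at most 3 called genes of the related lists per comparison with the largest change, *Cyba* and *Itgb2*, and 3 like genes per member. Of the 48 samples, 28 are of joint, muscle, and spleen. The scripts were tested on simulated data. Replicates were separate animals. Intervals and floors of 3 UMIs cover counting error only, and no doublet caller was run.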

Additional observations from a re-analysis of the deposited data

Results flagged for a closer look

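Of 98 combinations of gene, cell set, organ, and disease with 4 to 6 mice, 8 held a mouse far from the others. The limit is set to flag about 1 in 20 groups of independent, normally distributed values. That rate does not hold here, since a group with UMIs in only 1 mouse is always flagged and the cell sets share cells. Over all cells the flagged mice were H3 with the lowest *Ngp* of healthy muscle (1983 CPM), H3 with the only *Mmp9* of healthy spleen (8.98 CPM), and S2 with the highest *Lcn2* of CIA spleen (1113 CPM). In GN of CIA muscle they were S3 with the lowest *Lcn2* (911 CPM) and S6 with the only *Mmp9* (158 CPM). Outside GN they were S5 in CIA muscle, with 354 CPM of *Ltf* and 19.7 CPM of *Mmp9*, and H3 in healthy spleen, with 9.25 CPM of *Mmp9*.

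The effect of CIA differed between joint and muscle for *Mmp8* by 5.52 on the log2 scale. Between spleen and muscle it differed for *Camp* by 4.96, *Lcn2* by 5.62, *Ltf* by 5.32, *Mmp8* by 7.32, *Ngp* by 5.63, and *Mmp9* by 6.04. Each was a test of the difference itself (edgeR's quasi-likelihood interaction), with the organs of a mouse taken as independent. The value of *Mmp9* is from the fit without the filter. For spleen and muscle, 0 members were called with the mouse as a block in limma-voom, and 1 within the experiment CIA alone. The *Mmp8* difference between joint and muscle was not called within the experiment CIA alone. Without H7, 0 members were called in either comparison.

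Among the 1144 cells without a deposited label, which no comparison used, 81 cells from 10 mice had at least 2% of their UMIs on *Ngp*, *Camp*, *Ltf*, and *Lcn2*. Their median share of *S100a8* and *S100a9* was 34.0%, against 0.239% in the other unlabelled cells, at a median depth of 514 UMIs.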

How the results depend on the processing

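Counts of members called depended on the tool, the filter, and the experiment. For the permutation test the count is of members with an unadjusted p under 0.05. The other counts are of adjusted p, so the permutation counts are not on the same scale. Against 1 in the edgeR test of joint minus muscle, DESeq2 called 4, the fit without a filter on low counts 6, and the experiment CIA alone 0. Against 6 for spleen minus muscle, the experiment CIA alone gave 1 and the mouse as a block in limma-voom 0. Over all cells of muscle (1 called), DESeq2 gave 4, no filter 5, the permutation test 6, and the experiment CIA alone, the experiment as a term, and plain library size 0. Over all cells of spleen (2 called), DESeq2 gave 4, no filter 6, the permutation test 6, and the experiment alone or as a term 0. In spleen outside GN (2 called), no filter gave 4 and DESeq2 and the experiment CIA alone 0. In spleen monocytes (2 called), DESeq2 and the experiment alone or as a term gave 0. In joint fibroblasts (1 called), no filter gave 2 and DESeq2, RLE factors, plain library size, and mice of at least 5 cells 0. DESeq2 was run after the filter, which had removed the called members of these last 3 comparisons. Where 0 were called, DESeq2 called 2 in joint macrophages, and 1 was called over all joint cells (DESeq2, no filter, permutation), in joint outside GN (DESeq2, no filter), in muscle outside GN and muscle GN (permutation), in lung macrophages (RLE, plain library size), and in muscle macrophages (RLE, plain library size, at least 20 cells). The cause was not tested.

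Replicate numbers name different mice in the groups, so they pair no samples. With the replicate block, 0 members were called in muscle, 1 in spleen, and 0 in spleen monocytes. The replicate block turned the log2 fold change of *Camp* (0.62), *Cybb* (1.14), *Lcn2* (0.21), *Ltf* (0.21), and *Ngp* (0.24) in muscle outside GN, *Mmp9* in muscle GN (0.039) and spleen monocytes (-2.83), and *Mmp8* in spleen outside GN (-0.27).

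Leaving out each mouse in turn gave 0 to 2 calls for joint minus muscle, 0 to 6 for spleen minus muscle, 0 to 1 for joint fibroblasts, joint and muscle (all cells) and muscle macrophages, 1 to 2 for spleen monocytes, and 0 to 2 for spleen with or without GN. The difference in GN share was 19.6 to 29.3 points in joint, -20.7 to -13.8 in muscle, and 5.30 to 8.20 in spleen, and within the experiment CIA 34.98, -20.6, and 1.66 points, where the design cannot reach 0.05. Signs turned without 1 mouse for *Mmp8* in joint GN (-0.47 to 0.52), in lung macrophages for *Cybb* (-0.14 to 0.13), *Lcn2* (-0.62 to 0.74), and *Mmp9* (-1.43 to 1.16), for *Ltf* in muscle macrophages (-3.15 to 1.58), for *Lcn2* (-1.40 to 0.13) and *Mmp9* (-0.77 to 1.18) in muscle outside GN, for *Mmp9* in spleen monocytes (-0.053 to 2.62), and for *Cybb* in spleen outside GN (-0.17 to 0.21). None of these had been called.

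Other signs that turned were, without the filter, *Camp* (0.58), *Lcn2* (0.76), *Ltf* (0.69), *Mmp8* (0.80), and *Ngp* (0.64) in joint GN and *Cybb* (-0.00734) in lung macrophages. *Mmp8* in joint GN was 0.014 with the experiment as a term and 0.044 in granulocytes alone. In muscle outside GN, *Lcn2* was 0.36 in the experiment CIA alone and 0.026 with it as a term, *Cybb* 0.011 with it as a term, and *Mmp9* -0.95 without S100-high cells. *Cybb* in spleen outside GN was -0.16 in the experiment CIA alone and -0.034 without S100-high cells. Over all genes, DESeq2 called 46 against 3 in joint, 14 against 2 in muscle, 47 against 4 in spleen, 44 against 3 for joint minus muscle, 65 against 28 for spleen minus muscle, 26 against 3 and 33 against 3 outside GN of joint and spleen, 3 against 0 outside GN of muscle, 41 against 17 in joint fibroblasts, 45 against 29 in spleen monocytes, and 1 against 0 in joint GN. Few GN per mouse and few UMIs of *Mmp8* and *Mmp9* limit the comparisons.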

Other observations

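*Mmp8* was also counted in lung. Over all annotated lung cells it had 0, 7.92, 0, and 0 CPM in H3, H4, H6, and H7 and 118, 42.9, 161, 54.7, 90.5, and 113 CPM in S1, S2, S3, S5, S6, and S8. Every CIA mouse was above every healthy mouse (two-sided exact permutation p = 0.00952 unadjusted, the lowest possible with 4 and 6 mice), and the highest CIA value rests on few UMIs, since 27 were counted in CIA lungs together, 25 of them in macrophages. In skin, *Ngp*, *Ltf*, and *Mmp8* had 0 UMIs in the sums over annotated cells used here.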
